A study of Sus scrofa with 92 samples.

Results

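The comparison described here is FR8 against FR2 in the liver of fasted (FS) pigs, that is, the change between 2 and 8 hours after resuscitation began. Its members were chosen by their labels: fed status fasted, time point 2 or 8 hours, and the 2 libraries of an animal paired by the animal code. This gave 36 libraries of 18 animals, out of 92 libraries of 23 animals in the series. All 18 were male Yorkshire-Landrace pigs fasted overnight. All were splenectomized and underwent polytrauma (a captive bolt blow to the chest and a crush of the liver), hemorrhagic shock, a period of limited resuscitation and then full resuscitation under ventilator support. No uninjured group was sampled, so each animal served as its own reference. By the survival label, 15 animals lived and 3 died (animals 2, 16 and 20). The carbohydrate prefed (CPF) animals, which received a sugar syrup before the same procedure, enter only in a test of whether the change differed between feeding groups, with 4 of 5 animals, 2 of them labelled died. The FR8 library of the other CPF animal held 4388 counts in all and was left out. Biopsies were taken from the periphery of a liver that had itself been crushed. Time since resuscitation, hours under anesthesia and ventilation, and the number of earlier biopsies moved together and cannot be told apart.

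The liver makes most plasma proteins and keeps blood glucose steady between meals by releasing glucose from glycogen and by making it from amino acids and lactate. After blood loss it is driven by glucocorticoids, catecholamines and cytokines and is short of oxygen until flow returns. Rapidly induced transcription factors, chaperones, acute phase proteins and metabolic enzymes are known to respond to these signals in sequence. A biopsy is a bulk sample, so fewer cells of a type and less RNA per cell cannot be told apart.

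Counts per library ran from 8260616 to 15547165, with a median of 12164299. Albumin (ALB) held 29967 to 137517 CPM (counts scaled to the size of the library) over the 36 libraries, and C-reactive protein (CRP, on 2 identifiers) was also abundant, so the libraries carried the defining liver transcripts. The 12560 genes whose CPM summed to 10 or more across the libraries were tested with edgeR's quasi-likelihood test and a term for each animal. In what follows a gene "rose" or "fell" where its p, adjusted by the Benjamini-Hochberg method, was below 0.05, and was a differentially expressed gene (DEG) if its log2 fold change was also at least 1 in size. A positive log2 fold change means higher at FR8. The labels do not name a sequencing batch.

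The libraries of 4 animals went against their timepoint labels, as did the FR8 library of animal 9. Those of animal 11 lacked a block of genes. The FR8 minus FR2 change of each animal was correlated across genes with the median change of the other 17 (Pearson's r, a description; genes are not replicates). It was 0.42 to 0.73 in 14 animals. It was −0.52 in animal 10, −0.31 in animal 17, −0.19 in animal 19 and −0.37 in animal 21. Set against the median profile of each timepoint in the other FS animals, the library labelled FR2 of animals 17, 19 and 21 was nearest to FR8 and the library labelled FR8 nearest to Baseline. In animal 10 the library labelled FR2 was nearest to FR20 and the library labelled FR8 nearest to FR2. The library labelled FR8 of animal 9 was nearest to FR20 (r of 0.5, against 0.06 with FR8). Animal 9 stayed in the fits of 15 and 14 animals given below. The labels were kept as deposited. Animals 17, 19 and 21 were also those whose Baseline libraries stood apart, and a fit without them (15 animals) is given beside the results below. Animal 10 was noticed on this same change, and animals 17, 19 and 21 ran against it too. Values from the 15 or the other 14 animals therefore describe those animals and are not a separate line of evidence.

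**Figure D1:**
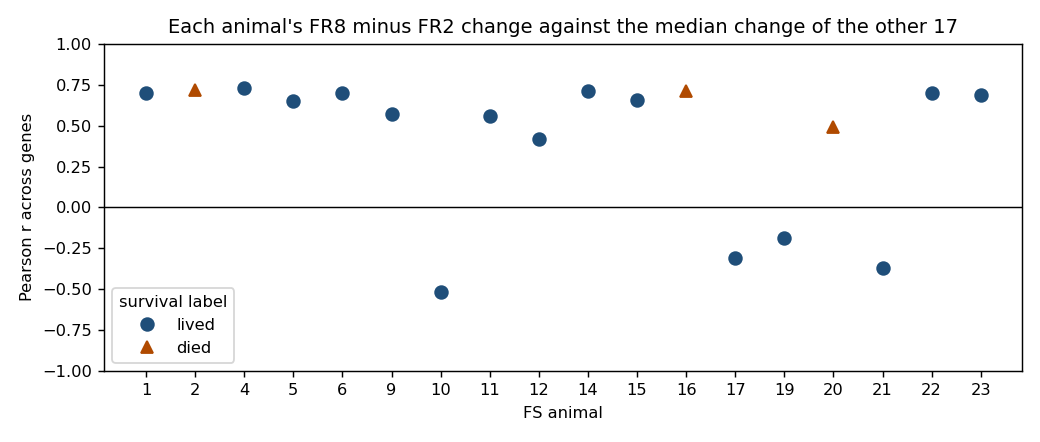
Pearson's r across genes (vertical axis) between each FS animal's FR8 minus FR2 change in log2 CPM and the median change of the other 17 animals, with circles for animals that lived and triangles for those that died. Animals 10, 17, 19 and 21 lie below 0, at −0.19 to −0.52, and the other 14 lie between 0.42 and 0.73.

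Both libraries of animal 11 held no count on 872 genes that were at 1 CPM or more in each of the other 34 libraries, of 8487 such genes. By symbol, 632 of the 872 could be placed in RefSeq's Sscrofa11.1 annotation, and 3 of its sequences, the mitochondrial genome among them, had all their placed genes at 0 (543 of 543). For these genes animal 11 adds nothing to the paired test, and ranges below are over the other 17 animals. A further 6 genes, FGA and both FGB identifiers among them, were at 0 only in its FR2 library.

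With all 18 animals, 3224 genes changed (25.7% of those tested), of which 1682 rose (13.4%) and 1542 fell (12.3%). Of these, 702 were DEGs (5.59%), 333 upregulated at FR8 (2.65%) and 369 downregulated (2.94%). Without animals 17, 19 and 21 the fit gave 843 upregulated DEGs and 664 downregulated DEGs (6.86% and 5.4% of 12286 genes), and 3085 genes rose and 2582 fell (25.1% and 21%, 46.1% together). Of the 333 upregulated DEGs, 328 were also called in the 15 animals, as were 334 of the 369 downregulated DEGs, and none changed direction. With animal 10 also left out, 1078 and 865 DEGs were called (8.84% and 7.1% of 12189 genes), and 3605 genes rose and 3128 fell (29.6% and 25.7%, 55.2% together). By these ranges, 0 genes had all their FR8 libraries on one side of all their FR2 libraries over 18 animals, and over the 15 animals 5 lay above and 1 below. Over the 14 animals this held for 229 genes that were higher at FR8 and 196 that were lower. Leaving out the 3 animals that died gave 90 upregulated and 122 downregulated DEGs. Of 149 named genes that passed with 18 animals, 94 did not pass without those 3, TYSND1, CRELD2, SDF2L1, SEC14L3, FKBP5, GYS2, FASN, SERPINA6 and ARG2 among them. NOP56, GNL3, ATF3, DUSP5, IER2, BAG3, AASS, GPT2, FMO5, GCLC and SLC10A1 were among the 94 too. The same held for IL4R, P4HA2, PPP1R15A, INHBE, ACTB, PFN1, GLUL, OAT, MRC1 and STAB1. Only some of the 94 are marked again below, so a gene without that mark may be among them. With single animals left out in turn, 112 of the 149 passed every time. The other 37 included DERL3, CYP1A1, ALAS1, GPT2, SLC37A4, PFKL, PDK4, FADS2, SCD, SQLE, PER1, HLF, DUSP5, DNAJB11, MYD88, NLRP3, RSAD2, RPL5, CCL5, ROBO4, EPCAM, ELF3, SMTN, HYOU1, PDIA4, HSP90B1, KLF9 and SOCS1, each of which was lost with any of 7 or more animals left out, so their calls below are marginal. Counts of list members below are to be read against the share of all genes in the same fit, 13.4% rising and 12.3% falling with 18 animals and 25.1% and 21% with 15.

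The genes that rose with the smallest p were mostly of modest level. DCPS, which degrades the caps of decayed mRNA, was at 7.28 to 44.3 CPM at FR2 (median 12.6) and at 11.6 to 68.6 CPM at FR8 (median 30.5) in 17 animals. It was higher at FR8 in all 17, the 3 animals above included, although the ranges overlapped between animals (log2 fold change 1.02, SE 0.14, adjusted p = 0.00133). CARNS1, which makes carnosine, went from a median of 28.3 CPM (16.9 to 82.9) to 72.8 CPM (43.3 to 165), with 16 of 18 animals higher (log2 fold change 1.24, SE 0.19). The other 8 were OXSM and ACP6 of mitochondrial lipid metabolism, the transporter SLC16A13, the nuclear receptor NR2F6, the sugar kinase SHPK, the transcription factor NFIB, and HDDC3 and YTHDC2, with log2 fold changes of 1.08 to 1.82. NR2F6 was the most abundant of them, at a median of 92.7 CPM at FR2 and 247 CPM at FR8.

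Genes that fell with the smallest p included several signalling genes. STC1, a secreted glycoprotein, went from a median of 4.79 CPM (0.965 to 24.1) to 1.24 CPM (0.187 to 6.6), a log2 fold change of −1.86 (SE 0.27, adjusted p = 0.00133), with 16 of 18 animals lower. JAK1, the kinase through which IL-6 and interferon receptors signal, was lower in 18 of 18 animals. It stood at 23.5 CPM (5.68 to 92.3) at FR2 and 10.9 CPM (2.71 to 47.2) at FR8, and its log2 fold change was −1.03 (SE 0.15, adjusted p = 0.00164). The bacterial peptidoglycan sensor NOD1 (−1.39), the death-associated kinase DAPK1 (−1.63), ANXA2 (−1.21), NUAK1 (−1.77), REEP4 (−1.85), DMXL1 (−1.07), RIPK4 (−1.07) and YOD1 (−1.99) made up the rest. Each of these was lower in 15 to 17 animals, and in the 15 animals their log2 fold changes ran from −0.98 to −2.04.

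The largest changes were seen in other genes, and most were opposite in some or all of animals 10, 17, 19 and 21. TYSND1, a peroxisomal protease, had a median of 5.0 CPM at FR2 (1.73 to 52.6) and 30.7 CPM at FR8 (3.97 to 138), a log2 fold change of 2.50 (SE 0.59, adjusted p = 0.00643). It was higher in 14 of 18 animals, and the 4 in which it was lower were animals 10, 17, 19 and 21. NR1I3 (the xenobiotic receptor CAR), INHBE (a hepatic activin subunit), CRELD2, DERL3 and SDF2L1 rose by 2.04 to 2.4. SEC14L3, a lipid transfer protein, went from 229 CPM (12.7 to 423) to 13.2 CPM (3.11 to 640), a log2 fold change of −3.55 (SE 0.89, adjusted p = 0.00858). LAMA3 (−3.17), the alcohol dehydrogenase ADH4 (−3.14), TP53INP2 (−2.85), KLHDC8A (−2.79) and CYP1A1 (−2.79) followed. In the 15 animals these 6 log2 fold changes were −3.41 to −4.20.

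**Figure D2:**
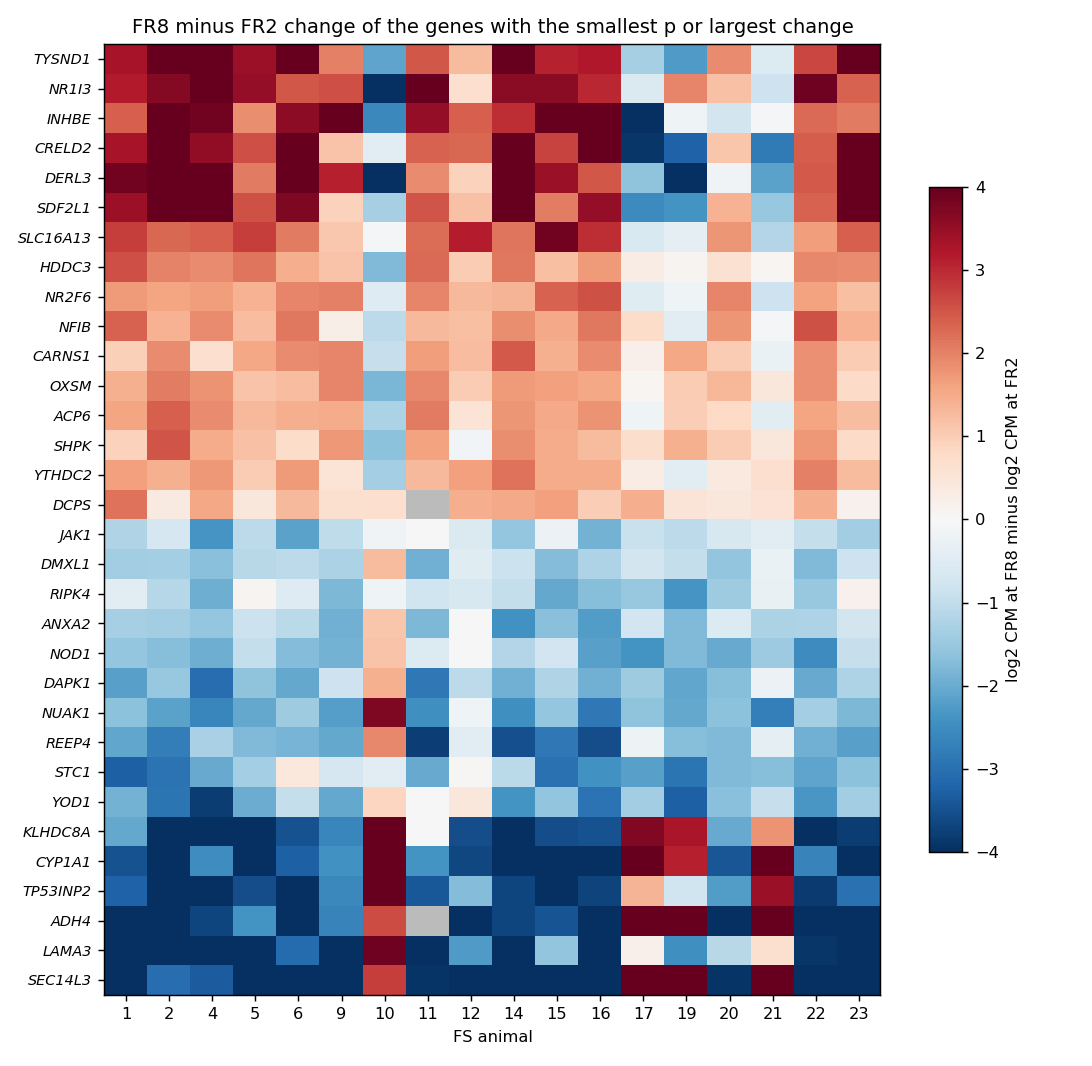
Heat map of the FR8 minus FR2 difference in log2 CPM for the 32 genes with the smallest p or the largest change (rows) in each FS animal (columns); red is higher and blue lower at FR8, colors saturate at 4, and grey marks animal 11 where it held no counts. Genes such as JAK1 and DCPS changed the same way in nearly every column, while TYSND1, CRELD2 and SEC14L3 had the opposite color in animals 10, 17, 19 and 21.

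Several chaperones of the endoplasmic reticulum rose. Of 20 tested members of the unfolded protein response (22 listed, 20 matched to an identifier), 11 rose, 0 fell and 9 did not pass, against 13.4% and 12.3% of all genes, and the list's median log2 fold change was 0.78 (all genes, −0.003). In the 15 animals 15 rose and 0 fell (median 1.15), against 25.1% and 21% of all genes, and without animal 11 alone 8 rose and 0 fell. CRELD2, a secreted stress protein, was at 67.5 CPM at FR2 (31.0 to 430) and 459 CPM at FR8 (18.9 to 1540). It was higher in 14 of 18 animals and lower in animals 10, 17, 19 and 21, and the ranges overlapped (log2 fold change 2.28, SE 0.66, adjusted p = 0.0169). SDF2L1, a partner of the chaperone BiP, went from 38.9 CPM (19.3 to 337) to 230 CPM (36.2 to 683), a log2 fold change of 2.04 (SE 0.56). The co-chaperone DNAJB11 rose by 1.4 (SE 0.45), from 89.0 to 306 CPM at the median. The disulfide isomerase PDIA4 (1.27), HYOU1 (1.24), HSP90B1 (1.10) and calreticulin (CALR, 0.87) rose as well. CRELD2, SDF2L1, DNAJB11, PDIA4, HYOU1, HSP90B1 and CALR did not pass without the 3 animals that died. Their log2 fold changes in that fit were 0.74 to 1.99. HSPA5, which encodes BiP itself, did not pass with 18 animals (0.88, SE 0.47, adjusted p = 0.172) and did with 15 (1.48, adjusted p = 0.00163). The transcription factor XBP1 (−0.01, adjusted p = 0.95) and the sensor ATF6 (−0.11, adjusted p = 0.66) did not pass. Nor did DNAJB9, a co-chaperone and XBP1 target (−0.08, adjusted p = 0.735).

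Immediate early genes, which are transcribed within minutes of a stimulus, fell. Of 19 tested (26 listed, 20 matched), 11 fell and 0 rose, with a median log2 fold change of −1.04, and in the 15 animals 12 fell and 0 rose. FOS, a subunit of AP-1, was at 48.1 CPM at FR2 (3.33 to 200) and 8.35 CPM at FR8 (2.68 to 47.7), and 15 of 18 animals were lower (log2 fold change −2.14, SE 0.43, adjusted p = 0.00375). KLF6 went from 160 CPM (29.7 to 326) to 35.9 CPM (22.1 to 165), with 16 of 18 animals lower (−1.70, SE 0.35, adjusted p = 0.00375). Its range at FR8 lay within its range at FR2 except at the bottom. The phosphatase DUSP5 fell by 1.85 (SE 0.62, adjusted p = 0.0331) but did not pass in the 15 animals (−1.39, adjusted p = 0.0699). ATF3 fell by 1.3 (SE 0.37). IER2 had the smallest fall among those that passed (−0.57, SE 0.18, adjusted p = 0.0284) and also did not pass in the 15 animals (−0.31, adjusted p = 0.125). CCN1 (−0.31, adjusted p = 0.288), CCN2 (−0.58, adjusted p = 0.224) and EGR1 (−0.86, adjusted p = 0.0646) were among the 8 that did not pass.

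Some glucocorticoid target genes and clock genes fell as well. Among 12 tested glucocorticoid targets (17 listed, 13 matched), 6 fell and 0 rose, with a median log2 fold change of −1.3, and 10 fell in the 15 animals (median −1.60). Without animal 11 the count was 4. FKBP5, a cochaperone of the glucocorticoid receptor and a standard readout of its activity, went from 62.1 CPM (7.85 to 157) to 14.3 CPM (3.97 to 35.9). It was lower in 14 of 18 animals and higher in the 4 named above (log2 fold change −1.64, SE 0.41, adjusted p = 0.00801). GADD45B, a stress signalling gene, fell by 2.39 (SE 0.65), from 144 to 19.9 CPM at the median, and KLF9 by 1.58 (SE 0.57). FKBP5, GADD45B and KLF9 did not pass without the 3 animals that died. The receptor itself, NR3C1, had a median of 16.7 CPM at FR2 and 19 CPM at FR8 and did not pass (0.06, SE 0.16, adjusted p = 0.796). TSC22D3 (GILZ) did not pass with 18 animals (−1.36, adjusted p = 0.0911) and did with 15 (−2.01, adjusted p = 0.000114).

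Of 17 tested clock identifiers (19 genes listed, 16 matched), 6 fell and 1 rose, in the 15 animals 9 fell and 1 rose, and without animal 11 4 fell and 1 rose. PER1, a repressor of the clock that glucocorticoids also induce, went from 56.6 CPM (5.64 to 134) to 8.59 CPM (2.19 to 178), a log2 fold change of −2.14 (SE 0.72, adjusted p = 0.0339). Both PER2 identifiers fell (−2.92, SE 0.72, and −2.14, SE 0.63). Since PER2 reads were split between 2 identifiers, neither value is the level of the whole gene. CRY2 fell by 1.20 (SE 0.36). HLF, an output gene of the clock, rose with 18 animals (0.86, SE 0.32, adjusted p = 0.0482) and did not pass with 15 (0.74, adjusted p = 0.099). PER1, both PER2 identifiers, CRY2 and HLF did not pass without the 3 animals that died. NPAS2 (0.56, adjusted p = 0.246) and DBP (0.33, adjusted p = 0.634) did not pass. FR8 followed FR2 by a fixed number of hours, so the hour of day and the time after shock cannot be told apart.

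Most genes for making ribosomes fell, while most genes of the ribosome itself did not pass. Of 28 tested ribosome biogenesis genes (34 listed, 31 matched), 21 fell and 0 rose, with a median log2 fold change of −0.54. In the 15 animals 20 fell and 1 rose. NOP56, a core protein of small nucleolar particles, was at 242 CPM (70.3 to 400) at FR2 and 107 CPM (63.2 to 235) at FR8, lower in 16 of 18 animals (−0.98, SE 0.23, adjusted p = 0.00643). The nucleolar helicase DDX21 went from 276 to 123 CPM at the median (−0.98, SE 0.20), and MYC, which drives this gene set, from 96.6 CPM (52.0 to 354) to 45.5 CPM (27.7 to 146) (−0.97, SE 0.19, adjusted p = 0.00353). GNL3 fell by 0.96 (SE 0.26). LYAR was the highest of the list at 0.31 and did not pass with 18 animals (adjusted p = 0.343), although it did with 15 (0.66, adjusted p = 0.00491). Of 17 cytosolic ribosomal proteins tested (48 listed, 17 matched), 1 fell, RPL5 (−0.30, SE 0.10, adjusted p = 0.0331). The highest and lowest of the rest were RPS9 at 0.07 and RPL11 at −0.14.

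**Figure D3:**
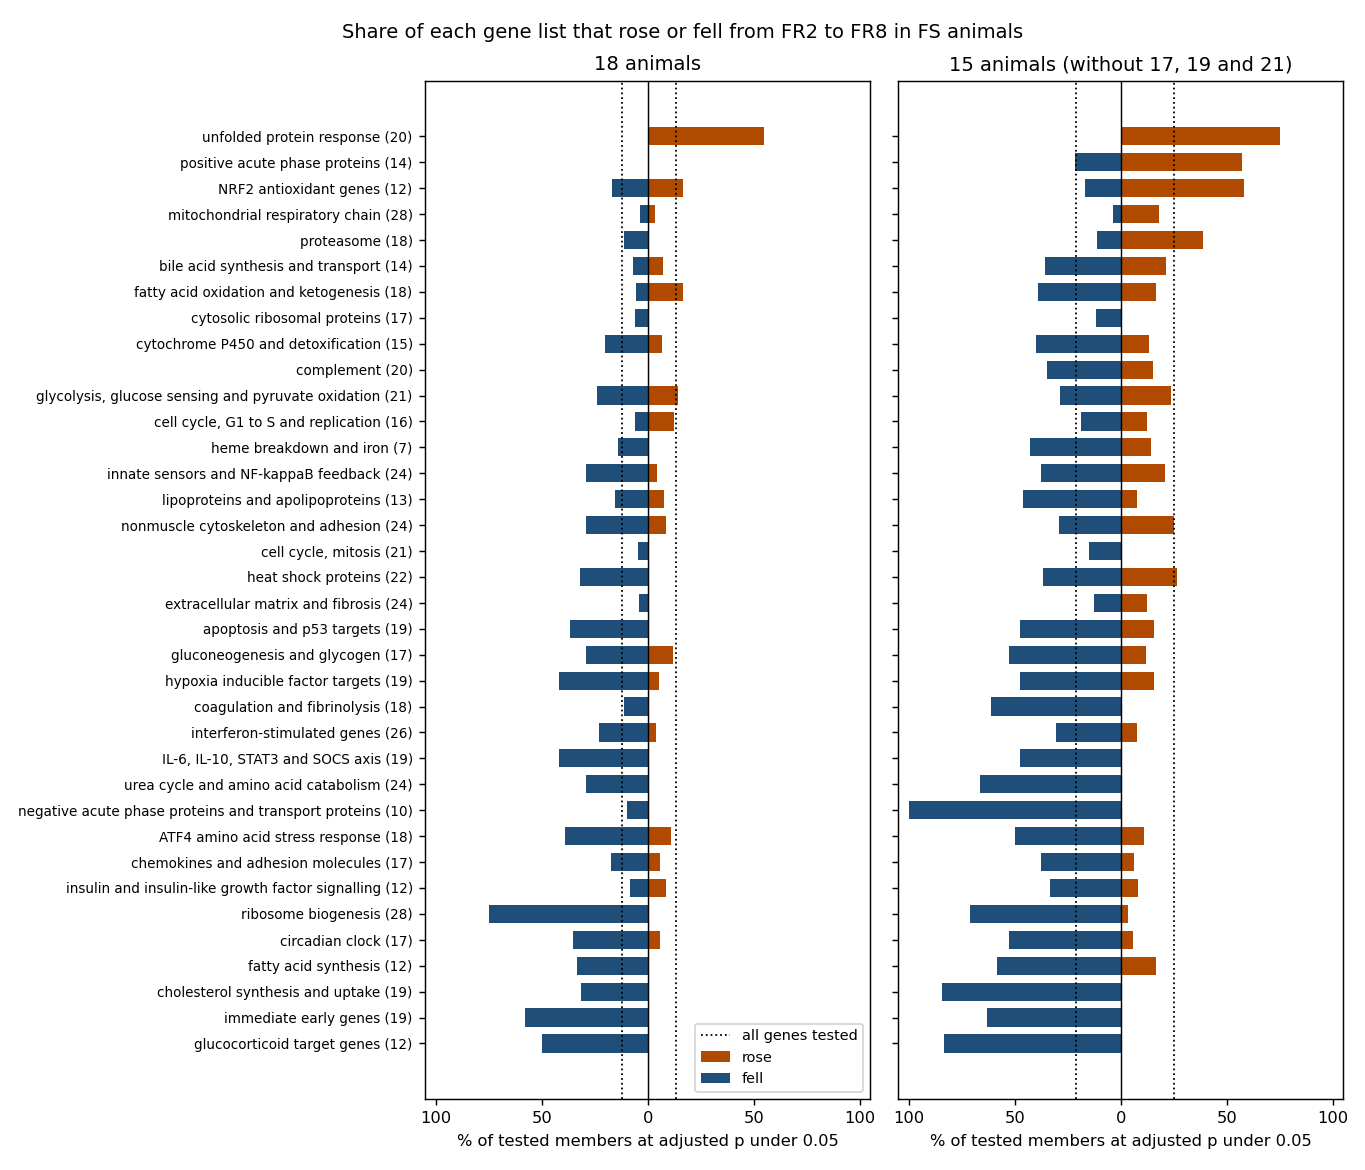
Percent of the tested members of each pathway list (number tested in parentheses) that rose (orange, right) or fell (blue, left) at adjusted p under 0.05, in 18 animals (left panel) and in the 15 without animals 17, 19 and 21 (right panel), with dotted lines at the share of all genes tested. The unfolded protein response had 55.0% of its members rising in 18 animals, and ribosome biogenesis had 75.0% of its members falling.

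Several heat shock proteins fell. Of 22 tested (24 listed, 24 matched), 7 fell and 0 rose in 18 animals, and 7 fell and 5 rose in the 15. The 7 were HSPA8, HSP90AB1, HSPH1, DNAJB1, HSPB8, BAG3 and the transcription factor HSF1. BAG3, a co-chaperone of HSP70, went from 581 CPM (72 to 1699) to 182 CPM (88.8 to 747), lower in 13 of 18 animals (−1.34, SE 0.39, adjusted p = 0.0166). DNAJB1 fell by 1.3 (SE 0.31) and HSPH1 by 1.27 (SE 0.38), and HSPA8, the constitutive HSP70, by 1.01 (SE 0.27). The mitochondrial chaperonin HSPD1 stood at 952 CPM at FR2 and 1470 CPM at FR8 and did not pass with 18 animals (0.46, SE 0.23, adjusted p = 0.129), but passed with 15 (0.83, adjusted p = 0.000402). Cytosolic HSP90AA1 was 0.15 (SE 0.31, adjusted p = 0.754) with 18 and 0.60 (adjusted p = 0.0275) with 15.

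Some enzymes of cholesterol and fatty acid synthesis fell, and most did not pass with 18 animals. Of 19 tested identifiers of cholesterol synthesis and uptake (23 genes listed, 20 matched), 6 fell and 0 rose, with a median log2 fold change of −0.86. In the 15 animals 16 fell and 0 rose (median −1.39), and without animal 11 4 fell. SQLE, which oxidizes squalene, went from 100 CPM (15.2 to 341) to 24.5 CPM (10.6 to 363), lower in 15 of 18 animals (−1.63, SE 0.54). IDI1, on 2 identifiers, had its larger fall at −2.27 (SE 0.68, adjusted p = 0.0197). NSDHL (0.26) and FDFT1 (−0.34) lay near the top of the list and passed in neither 18 nor 15 animals. Of 12 fatty acid synthesis genes tested (17 listed, 14 matched), 4 fell and 0 rose, and in the 15 animals 7 fell and 2 rose. Fatty acid synthase (FASN) ranged from 9.26 to 486 CPM at FR2 (median 57.2) and from 2.38 to 446 CPM at FR8 (median 9.73). The 15 animals that were lower and the 3 that were higher gave a log2 fold change of −2.42 (SE 0.69, adjusted p = 0.0157). The desaturases FADS2 (−1.73, SE 0.58) and SCD (−1.65, SE 0.58) and the carboxylase ACACA (−1.27, SE 0.37) fell too. SQLE, the IDI1 identifier given, FASN, FADS2, SCD and ACACA did not pass without the 3 animals that died. GPAM, which starts triglyceride synthesis, did not pass (0.62, SE 0.24, adjusted p = 0.0614), nor did malic enzyme ME1 (0.69, SE 0.29, adjusted p = 0.078), and both passed in the 15 animals (0.73 and 1.05).

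Of 18 genes of fatty acid oxidation tested (22 listed, 18 matched), 3 rose (16.7%), 1 fell (5.56%) and 14 did not pass, shares near or below the 13.4% and 12.3% of all genes. In the 15 animals 3 rose and 7 fell. ACSL1, which activates long-chain fatty acids, went from 458 CPM (111 to 1795) to 1537 CPM (130 to 4702), higher in 15 of 18 animals (1.57, SE 0.38, adjusted p = 0.00692). The carnitine carrier SLC25A20 rose from 40.9 to 80.0 CPM at the median (0.93, SE 0.20, adjusted p = 0.00461), as did CPT2, from 73.9 to 128 CPM (0.66, SE 0.13, adjusted p = 0.00375). These 3 take part in the entry of fatty acids into mitochondria. CPT1A, the controlled step of that entry, was lower at the median (308 and 206 CPM) and did not pass (−0.40, SE 0.23, adjusted p = 0.198). BDH1, of ketone body synthesis, fell by 1.74 (SE 0.54, adjusted p = 0.0238).

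Some genes of glucose metabolism fell, and few rose. With 18 animals the shares that rose in the 2 lists below, 11.8% and 14.3%, were near the 13.4% of all genes. The shares that fell were 29.4% and 23.8%, against 12.3%. Of 17 tested genes of gluconeogenesis and glycogen (20 listed, 18 matched), 5 fell and 2 rose, and in the 15 animals 9 fell and 2 rose. Glycogen synthase 2 (GYS2), the liver enzyme that builds glycogen, was at 373 CPM (63.6 to 661) at FR2 and 69.6 CPM (44.2 to 693) at FR8. It was lower in 14 of 18 animals and higher in animals 10, 17, 19 and 21 (−1.64, SE 0.51, adjusted p = 0.0235). LPIN1, a coactivator and phosphatidate phosphatase, fell by 2.46 (SE 0.70), from 33.7 to 3.97 CPM at the median. UGP2, which supplies UDP-glucose, fell by 1.25 (SE 0.34), and the glucose 6-phosphate transporter SLC37A4 by 1.26 (SE 0.45, 17 animals). PCK1, of gluconeogenesis, had medians of 2027 and 1408 CPM and did not pass (−0.59, SE 0.33, adjusted p = 0.185). CREB3L3, a transcription factor released from the endoplasmic reticulum in fasting and inflammation, rose by 1.31 (SE 0.36, adjusted p = 0.0142), from 282 CPM (119 to 780) to 810 CPM (169 to 1158). Of the 21 glycolysis and pyruvate oxidation genes tested (25 listed, 23 matched), 3 rose and 5 fell. PDK4, which blocks pyruvate oxidation, fell by 1.67 (SE 0.57, 17 animals), from 418 to 78.6 CPM at the median, while PDK3 rose by 0.98 (SE 0.23) at a far lower level, 2.76 to 6.54 CPM. PFKFB3 (−1.51, SE 0.34) and HK2 (−1.4, SE 0.45), a regulator of glycolysis and a hexokinase best known outside hepatocytes, fell. GAPDH (0.49, SE 0.14) and PFKL (0.54, SE 0.18) rose. Of the genes named here that passed with 18 animals, only PFKFB3 also passed without the 3 animals that died.

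Some genes of amino acid catabolism and ureagenesis fell. Of 24 tested identifiers (25 genes listed, 24 matched), 7 fell and 0 rose, and in the 15 animals 16 fell and 0 rose (median −0.61). Arginase 1 (ARG1), the last enzyme of the urea cycle, fell on both of its identifiers. The larger went from 1627 CPM (307 to 2986) to 393 CPM (178 to 1606), lower in 16 of 18 animals (−1.72, SE 0.35, adjusted p = 0.00378). GPT2, an alanine transaminase, fell by 1.26 (SE 0.42) and the lysine-degrading AASS by 1.18 (SE 0.31). The first enzyme of the cycle, CPS1, had medians of 3571 and 2314 CPM and did not pass (−0.40, SE 0.22, adjusted p = 0.174). GLUD1, HAL and HPD were the highest of the list at 0.26, 0.12 and 0.12 and did not pass.

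Detoxification and bile acid genes held a few large changes. NR1I3, a receptor that induces drug-metabolizing enzymes, went from 2.92 CPM (1.01 to 49.2) to 18.5 CPM (2.85 to 38.9), higher in 15 of 18 animals (2.4, SE 0.50, adjusted p = 0.00399). CYP1A1, a target of the aryl hydrocarbon receptor, was between 2.3 and 1880 CPM at FR2 (median 23.3) and between 0 and 1003 CPM at FR8 (median 6.78). Its spread between animals was far wider than its change (−2.79, SE 0.93, adjusted p = 0.0323). FMO5 fell by 1.8 (SE 0.55). In all, 1 of 15 tested detoxification genes (20 listed, 15 matched) rose and 3 fell, and in the 15 animals 2 rose and 6 fell. Among 14 bile acid genes tested (21 listed, 15 matched), SLC10A1, which takes up bile acids from blood, fell from 215 CPM (37.1 to 433) to 46.4 CPM (13.3 to 685) (−1.87, SE 0.58, adjusted p = 0.0231). FGFR4, the receptor that restrains bile acid synthesis, rose from 26.1 CPM (15.3 to 65.0) to 63.0 CPM (18.4 to 82.2), in 17 of 18 animals (1.07, SE 0.21, adjusted p = 0.0035). The other 12 did not pass, CYP7A1, the rate-limiting enzyme, among them (−0.22, SE 0.61, adjusted p = 0.816). Of 12 NRF2 antioxidant genes tested (21 listed, 15 matched), 2 rose and 2 fell. GCLC, of glutathione synthesis, rose by 1.51 (SE 0.40), from 58.8 to 184 CPM at the median, while SRXN1 fell by 1.19 (SE 0.23), from 561 to 219 CPM, and TXNRD1 by 0.53 (SE 0.15). In the 15 animals 7 of these 12 rose and 2 fell.

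**Figure D4:**
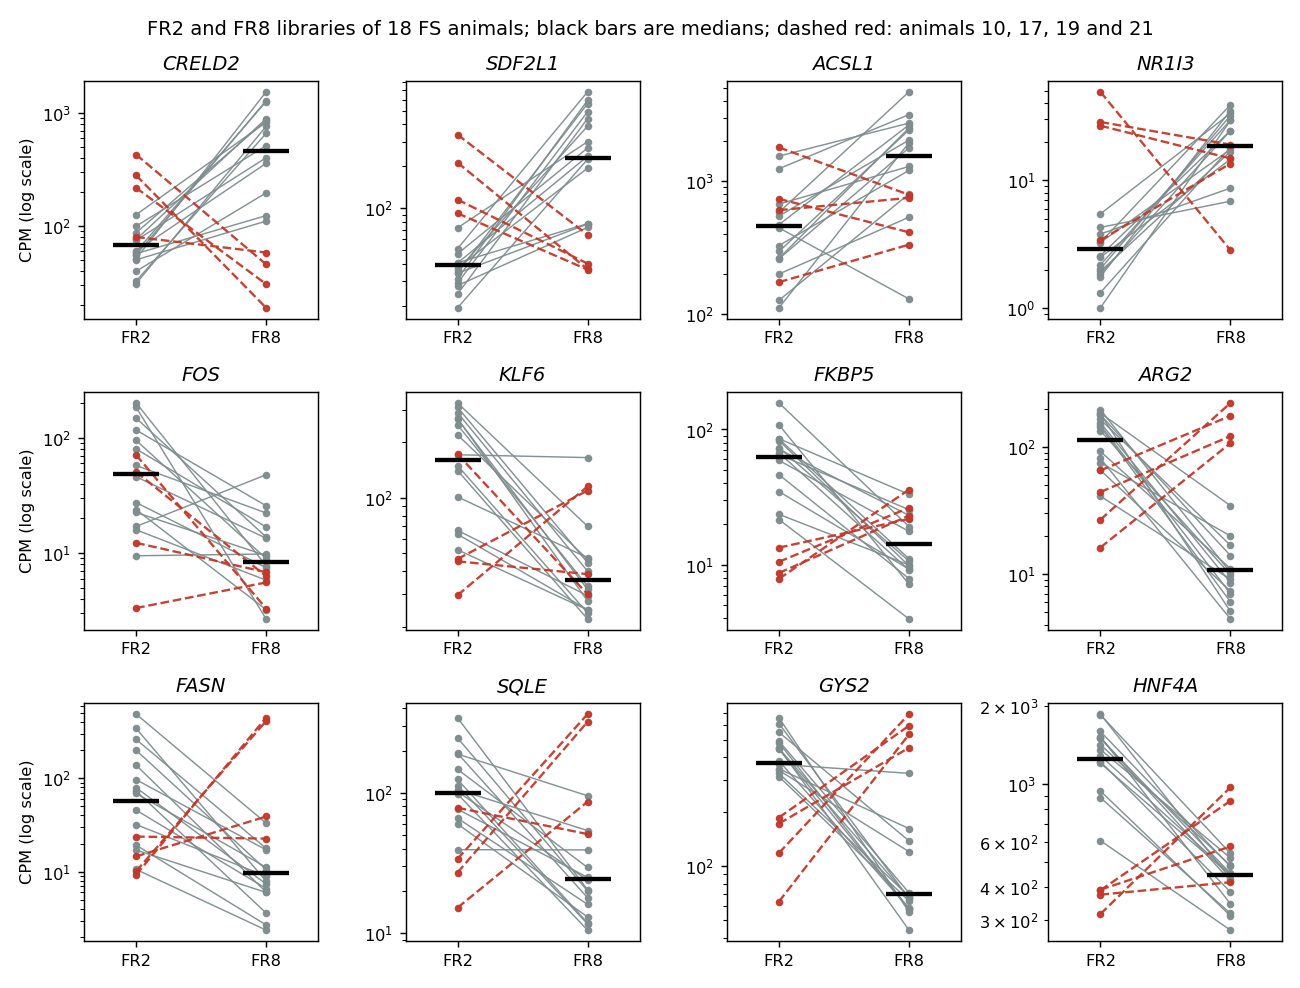
CPM (log axis) of 12 genes in the FR2 and FR8 libraries of each of the 18 FS animals, joined by a line per animal; black bars are the medians of all 18, and dashed red lines mark animals 10, 17, 19 and 21. CRELD2, SDF2L1, ACSL1 and NR1I3 had higher medians at FR8, the other 8 had lower ones, and for ARG2 and GYS2 all 4 red lines run against the other 14.

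Few genes of secreted liver proteins passed with 18 animals, and more did with 15. Of 14 tested identifiers of positive acute phase proteins (20 genes listed, 12 matched), 0 rose and 0 fell by edgeR's test, with 6 at an unadjusted p under 0.05, and DESeq2 passed 4 that were higher and 1 that was lower. With 15 animals 8 rose and 3 fell (median 0.70). With animal 11 alone left out the count was again 0 and 0, whereas the single calls of ALAS1, MYD88, SMTN and the extracellular matrix list described below were lost. ITIH4, a major acute phase protein of pigs, had medians of 4364 CPM (1294 to 14378) and 9181 CPM (1281 to 34479), with 13 of 18 animals higher (0.94, SE 0.39, adjusted p = 0.0752). It passed in the 15 animals (1.45, adjusted p = 0.000141). The fibrinogen chain FGB, on its larger identifier, was at 8290 CPM (5032 to 21052) and 13750 CPM (5440 to 18269) in the 17 animals other than animal 11, 14 of them higher (0.39, SE 0.21, adjusted p = 0.17). CRP had a log2 fold change of 0.62 (SE 0.27, adjusted p = 0.0891) on the more abundant identifier. No identifier was matched to HP or SAA3. Of 10 negative acute phase and transport proteins (10 listed, 10 matched), 1 fell with 18 animals and 10 fell with 15 (median −0.83). ALB had medians of 95149 CPM (29967 to 113481) and 49167 CPM (32765 to 137517). It was lower in 14 of 18 animals, did not pass with 18 (−0.63, SE 0.30, adjusted p = 0.118), and fell by 1.00 with 15 (adjusted p = 0.000594). SERPINA6, which carries cortisol in blood, fell in both, from 193 CPM (21.1 to 343) to 31.7 CPM (10.3 to 510) at the medians of 18 (−2.08, SE 0.63, adjusted p = 0.0212).

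Among 20 complement genes tested (25 listed, 20 matched), 0 rose and 0 fell with 18 animals by edgeR's test (3 at an unadjusted p under 0.05, and 2 passing in DESeq2), and 3 rose and 7 fell with 15. C9 was highest, at 0.45 (SE 0.18, adjusted p = 0.0628), and MBL2, a lectin that starts the cascade, lowest, at −1.55 (SE 0.63, adjusted p = 0.0745). Of 18 coagulation genes tested (25 listed, 21 matched), 2 fell and 0 rose, and 11 fell in the 15 animals. The plasminogen activator PLAT fell by 1.62 (SE 0.32, adjusted p = 0.00369), from 32.7 to 9.76 CPM at the median, and prekallikrein (KLKB1) by 1.09 (SE 0.35). Plasminogen (PLG) did not pass (−0.06, SE 0.15, adjusted p = 0.785). Of 7 heme and iron genes tested (16 listed, 9 matched), 1 fell, ALAS1, which begins heme synthesis, from 1358 CPM (165 to 2134) to 309 CPM (106 to 2810) (−1.65, SE 0.58, adjusted p = 0.0421). Of 13 lipoprotein genes tested (20 listed, 14 matched), 1 rose and 2 fell. VLDLR rose by 0.96 (SE 0.23, adjusted p = 0.00741), and APOA4, with medians of 4403 and 1639 CPM in 17 animals, did not pass (−0.85, SE 0.34, adjusted p = 0.0659).

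In the IL-6, IL-10, STAT3 and SOCS list, 8 of 19 tested fell and 0 rose (25 listed, 20 matched), and 9 fell in the 15 animals. Beside JAK1, the receptor IL4R went from 313 CPM (52.4 to 518) to 139 CPM (41.9 to 263) (−1.02, SE 0.24, adjusted p = 0.00609). SOCS1, a feedback inhibitor, fell by 0.99 (SE 0.35, adjusted p = 0.0444). STAT3 was at 221 and 202 CPM at the medians and did not pass (−0.10, SE 0.18, adjusted p = 0.696). IL10 was at most 2.17 CPM in any library and did not pass (0.06, adjusted p = 0.895), and OSM did not pass either (−1.52, adjusted p = 0.077). Of 24 tested identifiers of innate sensors and NF-kappaB feedback (30 genes listed, 25 matched), 7 fell and 1 rose, and in the 15 animals 9 fell and 5 rose. NOD1 fell from 16.5 CPM (5.15 to 61.5) to 8.25 CPM (1.05 to 16.8), NFKBIZ by 0.74 (SE 0.16) and NLRP3 by 0.88 (SE 0.30). The adaptor MYD88 rose by 0.61 (SE 0.21), from 51.9 to 93.2 CPM at the median. TLR2 (0.52, adjusted p = 0.239) and TLR3 (0.72, adjusted p = 0.0571) did not pass with 18 animals and did with 15 (0.98 and 1.01).

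Chemokines and interferon-stimulated genes were mostly low. Of 17 tested identifiers of chemokines and adhesion molecules (24 genes listed, 18 matched), 3 fell and 1 rose. P-selectin (SELP), which tethers leukocytes to endothelium, fell by 1.09 (SE 0.24, adjusted p = 0.00468), and CCL8 rose by 0.96 (SE 0.30) with no library over 2.4 CPM. CXCL8 (−0.96, adjusted p = 0.252) did not pass. Of 26 interferon-stimulated genes tested (36 listed, 31 matched), 6 fell and 1 rose. RSAD2 fell by 1.19 (SE 0.41) and MX2 by 0.92 (SE 0.28), from medians of 3.81 and 4.95 CPM, and STAT2 rose by 0.51 (SE 0.15).

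Hypoxia inducible factor targets fell in 8 of 19 cases and rose in 1 (23 listed, 20 matched), and in the 15 animals 9 fell and 3 rose. ADM, a vasodilator peptide, went from 29.1 CPM (1.78 to 77.3) to 5.98 CPM (2.15 to 27.0), lower in 16 of 18 animals (−1.94, SE 0.40, adjusted p = 0.00389). The glucose transporter SLC2A1 fell by 1.09 (SE 0.27). The collagen prolyl hydroxylase P4HA2 was the member that rose, from 30.0 CPM (18.1 to 211) to 98.3 CPM (20.5 to 167) (1.38, SE 0.41, adjusted p = 0.0187). EGLN1 (0.15, adjusted p = 0.395) and EGLN3 (0.13, adjusted p = 0.726) did not pass.

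Of 18 tested identifiers of the ATF4 response (24 genes listed, 18 matched), 7 fell and 2 rose. The arginine transporter SLC7A1 fell on both identifiers (−2.22 and −1.95), and PPP1R15A, which restores translation after stress, fell by 1.19 (SE 0.30). ATF5 (0.51, SE 0.16) and VLDLR were the 2 that rose. Of 19 apoptosis and p53 genes tested (29 listed, 21 matched), 7 fell and 0 rose. PMAIP1 (NOXA) fell by 1.09 (SE 0.25).

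The insulin and growth factor list had 1 riser and 1 faller among 12 tested (20 listed, 12 matched). INHBE rose from 5.42 CPM (0.206 to 71.4) to 34.2 CPM (1.71 to 80.6) (2.32, SE 0.64, adjusted p = 0.0137). PIK3R1 on the more abundant of its identifiers fell by 0.92 (SE 0.21). IGFBP1, a hepatic protein that binds insulin-like growth factors, had medians of 1925 and 841 CPM, ranged from 50.5 to 5177 CPM at FR8, and did not pass (−1.26, SE 0.56, adjusted p = 0.0957).

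Actin genes fell within a cytoskeletal list of which 29.2% fell and 8.33% rose, against 12.3% and 13.4% of all genes. Of 24 tested identifiers (31 genes listed, 23 matched), 7 fell and 2 rose, and in the 15 animals 7 fell and 6 rose. ACTG1 went from 2723 CPM (665 to 4919) to 901 CPM (534 to 3569), lower in 15 of 18 animals (−1.28, SE 0.31, adjusted p = 0.00681), and ACTB from 1631 to 895 CPM at the median (−0.69, SE 0.19). Reads shared by near-identical actins could have been split or dropped in counting. Profilin (PFN1) rose by 0.60 (SE 0.16). The extracellular matrix list had 1 faller among 24 tested (29 listed, 24 matched), and its highest and lowest members, TGFBI (0.24) and THBS1 (−0.80), did not pass. Of 21 mitotic genes tested (31 listed, 23 matched) 1 fell and 0 rose, and of 16 replication genes (31 listed, 19 matched) 2 rose and 1 fell. CCNE1 fell by 1.00 (SE 0.22) and POLA1 rose by 0.78 (SE 0.23), with FR2 medians of 3.42 and 1.61 CPM. Of 18 proteasome genes tested (33 listed, 19 matched), 2 fell and 0 rose, PSMD12 (−0.54, SE 0.12) and PSME4 (−0.34, SE 0.09), whereas in the 15 animals 2 fell and 7 rose. Of 28 respiratory chain genes tested (45 listed, 30 matched), SDHD rose (0.29, SE 0.09, 17 animals) and cytochrome c (CYCS) fell (−0.74, SE 0.22), from 366 to 211 CPM at the median.

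Markers of the cell types in a biopsy were summed over each list in the 17 animals other than animal 11. The hepatocyte sum had a median of 156105 CPM at FR2 (65973 to 190517) and 89697 CPM at FR8 (62111 to 220745), and was lower in 13 of 17 animals. Most of it was ALB, which did not pass with 18 animals. Of 12 tested hepatocyte identifiers (13 genes listed, 11 matched), 2 fell (16.7%, against 12.3% of all genes), 0 rose and 10 did not pass. In the 15 animals 9 fell and 1 rose. HNF4A, the transcription factor that keeps hepatocyte identity, fell by 1.15 (SE 0.26, adjusted p = 0.0049), from 1252 CPM (316 to 1858) to 447 CPM (274 to 970), while prothrombin (F2) did not pass (−0.09, adjusted p = 0.629). The pericentral sum went from 3314 CPM (599 to 7678) to 1952 CPM (1063 to 5652) and the periportal sum from 10729 CPM (3466 to 17175) to 6523 CPM (4428 to 12486), each lower in 13 of 17. Of 10 pericentral markers tested (12 listed, 10 matched), 3 fell and 0 rose. Glutamine synthetase (GLUL) fell by 1.49 (SE 0.43, 17 animals), from 297 to 99.9 CPM at the median, and OAT by 1.41 (SE 0.40). Of 9 periportal identifiers tested (12 genes listed, 8 matched), 2 fell, both of them ARG1. In the 15 animals 7 pericentral markers fell and 1 rose, and 6 periportal identifiers fell and 0 rose. The shares falling were 70.0% and 66.7%, against 21% of all genes.

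Neutrophil markers had a lower sum at FR8 in most animals. Their sum went from 133 CPM (32 to 243) to 34.2 CPM (20.1 to 234), lower in 13 of 17 animals, and 4 of 11 tested fell (20 listed, 15 matched). At FR2 most of this sum was ARG2, a mitochondrial arginase that is not restricted to neutrophils. ARG2 went from 113 CPM (16.2 to 196) to 10.7 CPM (4.44 to 222) and was higher only in animals 10, 17, 19 and 21 (−2.71, SE 0.63, adjusted p = 0.00618). S100A9 fell from 6.41 CPM (0.963 to 20.7) to 2.52 CPM (0.0933 to 12.6) (−1.52, SE 0.40, adjusted p = 0.0104), and lactoferrin (LTF) from 1.7 to 0.0775 CPM at the median (−2.97, SE 0.59). Of the 16 identifiers in the sum, 9 had a median under 1 CPM. Whether these leukocyte transcripts had a part in the results of the immune lists above was not tested.

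The macrophage sum was at 504 CPM (351 to 804) and 473 CPM (360 to 1043). Of its 10 tested markers (18 listed, 11 matched) the mannose receptor MRC1 rose (0.37, SE 0.11) and the scavenger receptor MSR1 fell (−0.42, SE 0.13). MSR1 did not pass in the 15 animals (−0.26, adjusted p = 0.0997). The endothelial sum was at 538 CPM (435 to 1056) and 576 CPM (453 to 748), with 1 of 16 tested (22 listed, 16 matched) rising, STAB1 (0.52, SE 0.16), and ROBO4 and ERG falling (−0.66 and −0.33). The T and NK cell sum was at 84.2 CPM (61.5 to 248) and 76.1 CPM (42.3 to 154), and perforin (PRF1) and CCL5 fell (−0.93 and −0.45) among 15 tested (22 listed, 15 matched). The cholangiocyte sum went from 491 CPM (188 to 918) to 295 CPM (78.2 to 655), lower in 14 of 17 animals, and CLDN4, ELF3 and EPCAM were the 3 of 7 tested that fell (12 listed, 9 matched). In the 15 animals 1 of the 7 fell (14.3%, against 21% of all genes). CLDN4, ELF3 and EPCAM did not pass without the 3 animals that died. Stellate cell and fibroblast markers were at 854 CPM (586 to 2529) and 824 CPM (671 to 1513), with 0 of 15 tested (16 listed, 15 matched) passing in edgeR's test (4 at an unadjusted p under 0.05, and 3 passing in DESeq2), against 4 in the 15 animals. Smooth muscle markers were at 224 CPM (87.8 to 605) and 249 CPM (113 to 321), with 1 of 5 falling, SMTN (−0.62, SE 0.21). Erythroid and platelet markers had summed medians of 305 CPM (48.1 to 429) and 128 CPM (40.1 to 2291), lower in 13 of 17 animals, and 0 of 6 passed edgeR's test (1 at an unadjusted p under 0.05, 0 in DESeq2), HBB included (−0.75, SE 0.43, adjusted p = 0.203, 17 animals).

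The lipid droplet protein PLIN1 rose within the adipocyte list, from 0.397 to 1.53 CPM at the median (1.72, SE 0.39, adjusted p = 0.00561), while the sum of that list was at 14 CPM (9.38 to 24.3) and 21.7 CPM (8.24 to 41.6). Of 5 B cell markers and 2 mesothelial markers tested 0 passed edgeR's test, with 1 of each at an unadjusted p under 0.05 and 1 of each passing in DESeq2, with sums of at most 25.5 and 6.19 CPM. Striated muscle, which marked the Baseline libraries of animals 17, 19 and 21, was at 0.296 to 186 CPM at FR2 (median 3.19) and 0.702 to 123 CPM at FR8 (median 2.01). All 11 of its identifiers had a median under 1 CPM over the 36 libraries, and of 10 tested NEB fell (−2.15, SE 0.66).

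The same change was then set beside that of the 4 CPF animals, which share no sample with the FS fit. Of these 4, 2 carried the label died, against 3 of 18 FS animals, so feeding group and survival were unbalanced. Of the 333 genes upregulated at FR8 in FS animals, 329 had a median change above 0 in the CPF animals (98.8%, against 51.1% of all 12560 genes), and of the 369 downregulated genes 359 had a median change below 0 (97.3%, against 48.8%). The median change of those 2 sets in CPF animals was 1.42 and −1.51 on the log2 scale. CRELD2 changed by 1.59 to 3.82 in the 4 animals (log2 CPM), FASN by −6.28 to −2.74, GYS2 by −3.57 to −1.09, ALB by −1.27 to −0.69 and FOS by −4.66 to −0.06.

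**Figure D5:**
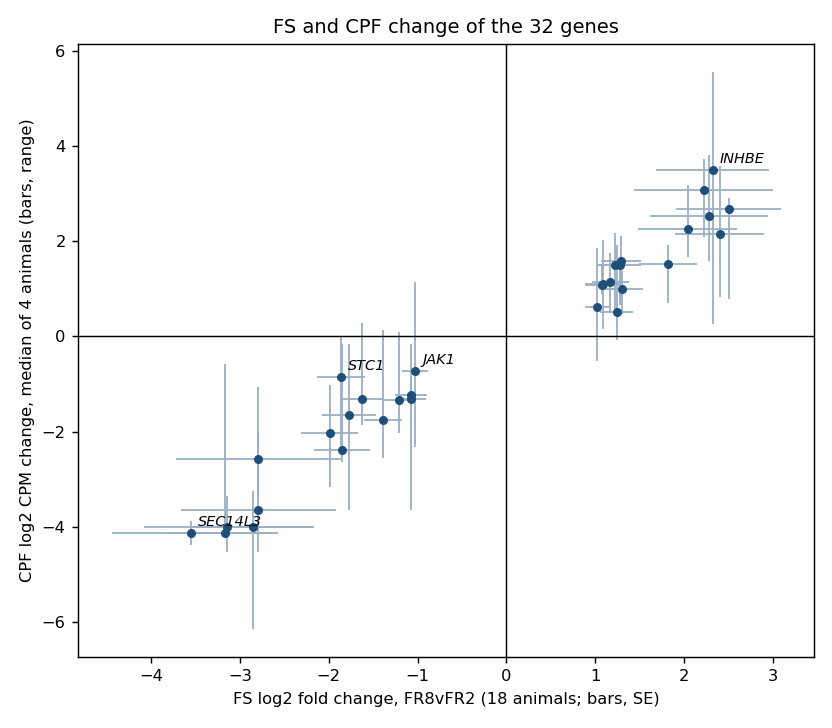
Log2 fold change in 18 FS animals (horizontal axis, bars are SE) against the change in log2 CPM in 4 CPF animals (vertical axis, point at the median, bars from lowest to highest) for the 32 genes with the smallest p or largest change in FS animals. All 32 medians lie on the same side of 0 in both groups, and the CPF range of INHBE runs from 0.26 to 5.56.

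In the test of the difference itself (CPF change minus FS change, 22 animals), 0 of 12775 genes passed edgeR's test (0.0%), 474 were at an unadjusted p under 0.05, and DESeq2 called 1. The smallest p belonged to an identifier without a symbol (ENSSSCG00000012006), which changed by 0.80 to 1.51 in the 4 CPF animals and by −1.5 to 0.14 in the 18 FS animals (difference 1.86, SE 0.38, adjusted p = 0.588). DOCK10, a regulator of small GTPases, followed, at 0.70 to 1.67 in CPF and −1.27 to 0.64 in FS animals (difference 1.42, SE 0.31, adjusted p = 0.867). Without animals 17, 19 and 21 there were again 0, and 477 at an unadjusted p under 0.05, and with animal 10 also left out 0 and 755. With 4 CPF animals a difference had to be large to pass, and the SE of the difference was 1.35 for FASN and 0.61 for ALB, so equal changes were not shown.

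Animals that died and animals that lived were compared in the same way. By edgeR's test 0 of 12560 genes passed (0.0%), 229 were at an unadjusted p under 0.05, and DESeq2 called 0 (322 at an unadjusted p under 0.05). GTF2B, a general transcription factor, had the smallest p. Its change was −1.64 to −1.26 in the 3 animals that died and −0.74 to 0.83 in the 15 that lived, without overlap (difference −1.27, SE 0.28, adjusted p = 1.0). Without animals 17, 19 and 21, all of which lived, there were 0 called and 181 at an unadjusted p under 0.05. Without animal 10 as well, which also lived, there were 0 called and 313. With 3 animals that died a difference had to be large to pass, so equal changes were not shown. Differences (died minus lived, 18 animals) of −1.41 for KLF6 and 1.45 for CRELD2 did not pass.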

How the data were processed

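Liver RNA libraries (poly(A)-selected, single reads used) were aligned by the authors to Sscrofa10.2 with TopHat (version 1.5.0 in the submitters' processing notes, with CASAVA 1.8.2 upstream), sorted with SAMtools and counted per pig Ensembl gene with HTSeq, whose strand and overlap settings are not given in the sources used here. The deposited values are raw counts, not normalized, with replicates not pooled, and every column was matched to a sample. CPF animal 3 was not used here, since its FR8 library held 4388 counts in all.

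Counts were analyzed with edgeR 4.0.16 (TMM, quasi-likelihood F test, 2-sided, a term per animal, Benjamini-Hochberg adjustment over all genes tested, sum of CPM of at least 10), DESeq2 1.42.0 and limma 3.58.1 under R 4.3.3. Log2 CPM used a prior count of 2. Baseline and FR20 libraries entered only the comparison of libraries with timepoint profiles and 1 alternative fit. Pairing came from the animal code in the titles. After timepoint means were removed, the 2 libraries of an animal had a median correlation of 0.22 (13 of 18 over 0.1, lowest −0.48), and libraries of different animals −0.01, so animal terms were kept. No 2 libraries agreed within sampling noise. Animals are separate by the codes in the labels, with 1 library per biopsy, and depth sets the precision of single genes. The tests were checked on simulated counts.

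Of 25322 identifiers, 12504 had a symbol, 11804 from a gene name table and 700 from the study's tables. The members and gene lists were chosen with earlier results of these data known. Named genes are the 10 risen and 10 fallen DEGs with the smallest adjusted p, the 6 risen and 6 fallen with the largest change among those at a median of at least 5 CPM, the 3 highest and 3 lowest members of each list, the 3 most abundant members of each cell type list, the 2 smallest p of each interaction, and ALB, HP, SAA3 and CRP. From these, list members were left unnamed where the symbol tables disagree or values are low, and some are not reported here. HSF1, HSP90AB1 and HSPB8, and other list members were named after their values were seen: HYOU1, PDIA4, HSP90B1, CALR, HSPA5, ATF3, KLF9, TSC22D3, SLC2A1, CRY2, GNL3, HSPA8, UGP2, AASS, IL4R, SOCS1, STAT3, EGR1, HSP90AA1 and ACACA.

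The alternatives were RLE scaling, no filter, filterByExpr, the likelihood ratio test, DESeq2, limma voom, no animal terms, all 72 FS libraries, adjusted p alone, and fits without the animals that died, without animals 17, 19 and 21, and without each animal in turn. Limma voom with library quality weights, the fits without animals 10, 17, 19 and 21, with and without animal 11, and the interactions without these animals were chosen after seeing the data.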

Additional observations from a re-analysis of the deposited data

Results flagged for a closer look

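Among 41 genes whose change was looked at in the 4 CPF animals, 2 had 1 animal far from the other 3 (Dixon's criterion, which flags about 1 in 20 groups by chance). LAMA3, a laminin chain, changed by −0.59 (log2 CPM) in that animal and by −4.23 at the other end, with a median of −4.13. REEP4 changed by −0.17 in that animal and by −2.65 at the other end, with a median of −2.39. Neither gene passed the test of a difference between CPF and FS animals by edgeR's quasi-likelihood test (LAMA3, difference −0.22, adjusted p = 1.0, and REEP4, difference −0.10, adjusted p = 1.0).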

How the results depend on the processing

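The count of 702 DEGs (333 up, 369 down) stayed within 1.5 times under RLE scaling, no filter, filterByExpr, the likelihood ratio test, DESeq2, limma voom and the fit of all 72 FS libraries. Without the replicate block (no animal terms) 221 DEGs were upregulated, against 333 with the pairing. It moved to 1655 (861 up, 794 down) with limma's quality weights, to 212 (90 up, 122 down) without the animals that died, to 1507 (843 up, 664 down) without animals 17, 19 and 21, to 1943 (1078 up, 865 down) when animal 10 was also left out, and to 1895 (1036 up, 859 down) when animal 11 was left out too. The adjusted p alone gave 3224 (1682 up, 1542 down). With each animal left out in turn the count ran from 518 (without animal 2) to 1093 (without animal 10), with 249 to 543 up and 263 to 550 down. The fits that gave 212 and 1507 each held 15 animals, and the causes of these shifts were not tested. For CPF minus FS, DESeq2 called 1 gene, higher in CPF, and every other alternative run, each CPF animal left out included, called 0. For died minus lived all alternatives run called 0, each animal that died left out included. Of 3099 values of the named genes under the 9 settings that keep all animals, 2771 stayed on their side of the threshold, 208 came to pass it and 120 ceased to. Of the 149 that passed with 18 animals, 94 did not without the animals that died, and 37 were lost with at least 1 animal left out. By the fits, none that passed changed direction under any of 31 settings. Depth limits genes of a few CPM, and libraries of animal 11 hold no value for 872 genes.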
